A study of Ovis aries with 9 samples.

Results

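The 10 genes of ovulation and cumulus expansion, AREG, EREG, BTC, PTGS2, TNFAIP6, HAS2, PTX3, ADAMTS1, PGR and VCAN, were followed in ovine granulosa cells (GCs) cultured at 3 glucose concentrations. The genes were chosen by name for their known role in the follicle and taken as the entries of the gene expression table that carry exactly that symbol. Of the 10 genes, 9 had such an entry among 39157 genes in all, of which 17076 carried a symbol. PGR, the progesterone receptor, was not analysed here.

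GCs were taken from pooled follicles of 3 to 5 mm in ovaries of yearling thin-tailed Han ewes and cultured for 48 h with serum. In every group the cells then spent 8 h without glucose and serum. The groups differed in the glucose given for the following 24 h, which was 0 mM in CON, 8.4 mM in LOW and 33.6 mM in HIGH. Total RNA was depleted of ribosomal RNA and sequenced in 9 libraries, 3 per group. No gonadotropin is named among the additions to the medium, and the labels do not say whether the 3 libraries of a group came from separate cultures, so p-values measure the spread between these libraries, which may be technical.

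At ovulation, the surge of luteinizing hormone reaches the granulosa cells of the follicle wall, which release the epidermal growth factor (EGF)-like ligands amphiregulin (AREG), epiregulin (EREG) and betacellulin (BTC). These ligands act through the EGF receptor on cumulus cells, the granulosa cells that enclose the oocyte. The cumulus cells then make prostaglandin E2 through PTGS2 and build a hyaluronan matrix, for which HAS2 makes the hyaluronan, TNFAIP6 and PTX3 help to cross-link it, and versican (VCAN) binds to it. ADAMTS1 is a secreted protease that cleaves versican, and PGR is a transcription factor on which rupture of the follicle depends.

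Levels are given as FPKM, a count of fragments per kilobase adjusted for sequencing depth, which puts genes of different length on 1 scale. An FPKM of 1 corresponded to a nominal 47.99 to 71.3 fragments per kilobase in the 9 libraries. These depths were read from the factors that link the deposited FPKM to the deposited estimated counts. Those counts are not numbers of reads, so the depths are nominal, and they cover counting error only. Of the 9 genes, 4 were under 1 FPKM in every library and 3 were over 1 in every library. By mean level the order was VCAN, ADAMTS1, PTX3, TNFAIP6, HAS2, BTC, PTGS2, EREG and AREG. Each gene stood above the next in 9 of 9 libraries, except that BTC was above PTGS2 in 6 of 9 and PTGS2 above EREG in 6 of 9, so the order of these 3 is not resolved by the libraries. VCAN lay at the 88.3rd percentile and EREG at the 22.0th percentile of genes with a symbol and a value above 0.

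The libraries and the cells set the frame for these values. Small RNA genes took 30.3% to 72.1% of all FPKM in a library. Genes with a span of 100 kb or more deviated from those under 10 kb by a different amount in each library, from -0.64 (log2) in CON replicate 3 to 0.42 in HIGH replicate 1. Among granulosa markers, 8 of 12 had an entry, with CYP11A1, which begins steroid synthesis, at 135 to 198 FPKM, the inhibin alpha subunit INHA at 8.57 to 19.7 and the FSH receptor FSHR at 0.218 to 0.564, while CYP19A1, INHBB, AMH and FOXL2 were not analysed here. All 11 stromal and smooth muscle markers were present, with a summed level of 5353 to 6767 FPKM over CON libraries, 5462 to 5776 over LOW libraries and 4729 to 5890 over HIGH libraries, led by LUM, TAGLN and ACTA2. Other markers of that list had the opposite order, with COL1A1 at 15.8 to 35.1 FPKM over CON libraries, 22.5 to 27.5 over LOW libraries and 37.1 to 127 over HIGH libraries, and over the 11 markers the median difference (log2) was 0.13 in HIGH versus CON and 0.34 in HIGH versus LOW. The oocyte markers BMP15 and OOSP2 and the endothelial marker CDH5 were listed at 0 in every library. In the same lists, the oocyte marker GDF9 was at 0.533 to 0.863 FPKM and the endothelial marker TEK at 0.519 to 1.09. The others of these lists with an entry did not exceed 0.0886. Leukocyte markers summed to 15.5 to 22.3 FPKM, carried mostly by CD68 (7.45 to 13.1) and CD14 (6.15 to 7.89). The other leukocyte markers did not exceed 1.48, and PTPRC did not exceed 0.697. Theca markers summed to 3.82 to 8.04, carried mostly by STAR (3.65 to 7.63). CYP17A1 did not exceed 0.412 and INSL3 did not exceed 0.0843, while LHCGR was not analysed here. The part of such cells in the levels below was not tested.

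**Figure D1:**
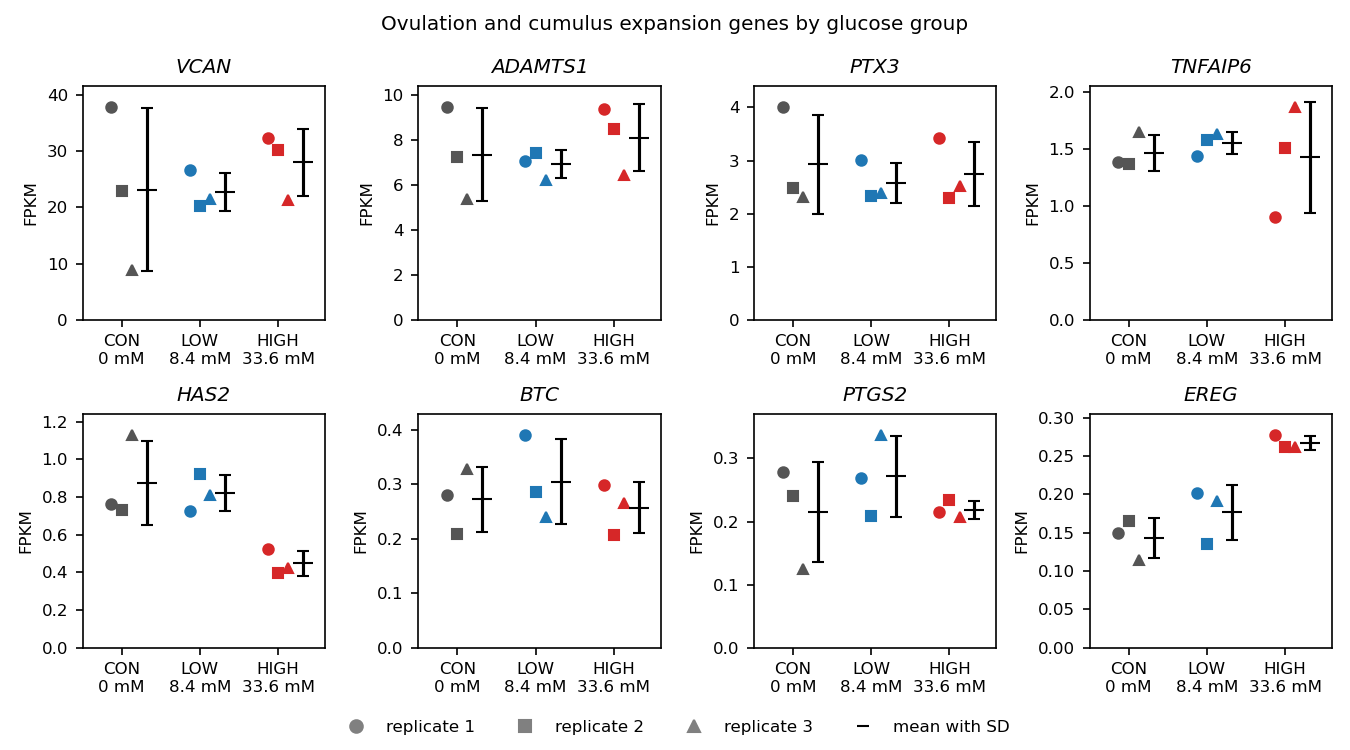
FPKM (vertical axes, from 0) of 8 genes in each library of CON, LOW and HIGH (horizontal axes, glucose in mM), with symbols for the replicate and a bar for the mean with SD of 3 libraries. HAS2 in the 3 HIGH libraries lay below the 6 others, EREG in the 3 HIGH libraries lay above the 6 others, and the groups overlapped for the other 6 genes. AREG, listed at 0 in every library, is left out.

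Differences between groups were tested with limma, a linear model fitted across all genes, on log2(FPKM + 0.1) after each library was scaled on its median gene. Fold changes are given as the first-named group minus the second, and understate the change of low genes. P-values were adjusted by the Benjamini-Hochberg (BH) method over all 24365 genes tested, and a call needed an adjusted p under 0.05 and an absolute log2 fold change over 1. The 8 genes above 0 passed the filter on low values. With limma, 0 of 8 genes were called in LOW versus CON, 0 of 8 in HIGH versus CON and 0 of 8 in HIGH versus LOW, where 0.00821% of all genes were called in each. With an unadjusted p under 0.05, limma gave 0 genes in LOW versus CON (1.83% of all genes), 1 in HIGH versus CON (6.77%) and 1 in HIGH versus LOW (7.67%), and that gene was HAS2 both times. The quasi-likelihood test of edgeR on the estimated counts called 0 of the 8 in each comparison, where it called 0.00821%, 0.0123% and 0.0123% of all genes. DESeq2 on these counts called HAS2 in HIGH versus CON, where it called 0.726% of all genes, and 0 of the 8 in LOW versus CON and in HIGH versus LOW (0.677% and 1.39% of all genes). In bulk RNA, fewer cells of a type and less RNA per cell cannot be told apart.

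Groups without overlap were also counted, as a description of the 3 against 3 libraries. None of the 8 genes separated LOW from CON (6.07% of all genes did), while 2 separated HIGH from CON (9.4%) and 2 separated HIGH from LOW (18.9%). They were EREG, higher in HIGH, and HAS2, lower in HIGH. An exact permutation test of 3 against 3 cannot give a p below 0.1. At the level of transcripts, 9 of the 14 listed for these genes were tested with limma over all 39471 transcripts tested, and 0 were called in LOW versus CON, HIGH versus CON and HIGH versus LOW (0.0279%, 0.0279% and 0.0355% of all transcripts). With an unadjusted p under 0.05, the counts were 0, 1 and 1 (2.71%, 6.09% and 6.92%), and the transcript was that of HAS2. The median log2 fold change of the 8 genes was 0.19 in LOW versus CON, 0.03 in HIGH versus CON and -0.10 in HIGH versus LOW, beside 0.01, 0.07 and 0.06 over all genes tested.

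**Figure D2:**
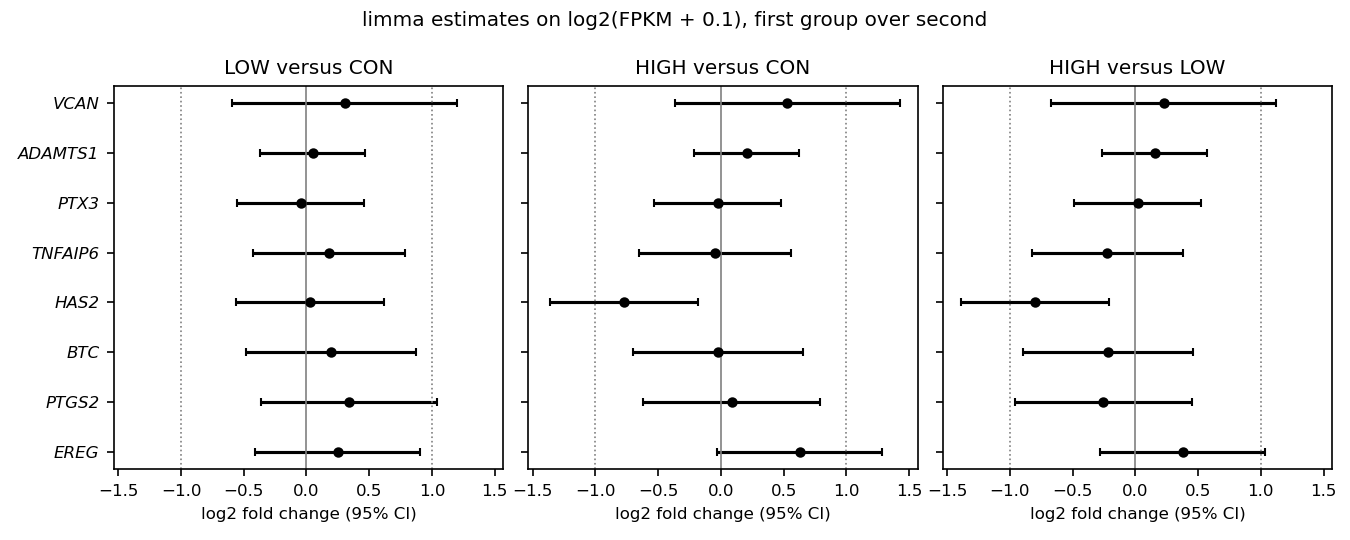
Log2 fold change of the first group over the second with its 95% confidence interval from limma (horizontal axes) for 8 genes (vertical axis) in the 3 comparisons, with dotted lines at the fold threshold of 1. The interval excludes 0 for HAS2 in HIGH versus CON and in HIGH versus LOW before adjustment, and includes 0 for the other 7 genes in every comparison.

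Of the EGF-like ligands, AREG (6:89053717-89061196, the genome build is not stated by the authors) was listed at 0 in all 9 libraries. EREG (6:88988338-88997541) and BTC (6:89366998-89414148) lie on the same chromosome, with AREG between them, in a stretch of 426 kb. For both, the whole signal sat on an assembled transcript, TCONS_00251835 of EREG and TCONS_00257695 of BTC, while the annotated transcript of each gene was listed at 0. Both assembled transcripts cover a wider genomic span than the annotated ones.

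EREG was at 0.149, 0.165 and 0.114 FPKM in the CON libraries, 0.202, 0.135 and 0.191 in the LOW libraries and 0.278, 0.261 and 0.262 in the HIGH libraries. The 3 HIGH libraries were above the 6 others, and CON and LOW overlapped. The means were 0.143 ± 0.0260 (SD, n = 3) in CON, 0.176 ± 0.0359 in LOW and 0.267 ± 0.00922 in HIGH. These levels correspond to a nominal 6.58 to 16.6 fragments per kilobase. In HIGH versus CON the log2 fold change of EREG was 0.63 (SE 0.29, 95% CI -0.03 to 1.29, limma p 0.0590, BH adjusted p 0.651). Against LOW the difference was 0.38 (SE 0.29, p 0.226, BH adjusted p 0.669 with limma), and LOW differed from CON by 0.25 (SE 0.29, p 0.414, adjusted p 0.99993). DESeq2 on the estimated counts gave 0.89 for HIGH versus CON with an adjusted p of 0.0473, below the fold threshold, and edgeR gave 0.89 with an adjusted p of 0.804.

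BTC was at 0.281, 0.209 and 0.328 FPKM in the CON libraries, 0.391, 0.285 and 0.239 in the LOW libraries and 0.299, 0.207 and 0.265 in the HIGH libraries. All groups overlapped, and the highest library was in LOW. The 95% CI of HIGH versus CON ran from -0.70 to 0.65 on the log2 scale (limma).

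EGFR, ERBB2 and the sheddases of this branch were at higher levels than the ligands in every library. The other receptors listed were lower, with ERBB4 at 0.339 to 1.29 FPKM and ERBB3 at up to 0.0992. Of 11 other genes listed, 9 had an entry and 5 were over 1 FPKM in every library. EGFR, the receptor of AREG and EREG, was at 11.7 to 23.4 FPKM, ERBB2, its partner, at 5.76 to 8.00, and ADAM17 and ADAM10, which free such ligands from the cell surface, at 7.46 to 13.4 and 12.2 to 36.1. Among other ligands, TGFA was at 1.04 to 1.77, HBEGF at 0.310 to 0.607 and EPGN at up to 0.113. HBEGF did not exceed 0.392 in any HIGH library and never fell under 0.472 elsewhere. Of all genes tested, 9.4% separated HIGH from CON and 18.9% separated HIGH from LOW, so nothing is read from this. With limma, 0 of the 7 tested were called in each comparison, and 0 had an unadjusted p under 0.05. EGFR differed by 0.31 (SE 0.20, p 0.163 with limma) in HIGH versus CON and overlapped between all groups.

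**Figure D3:**
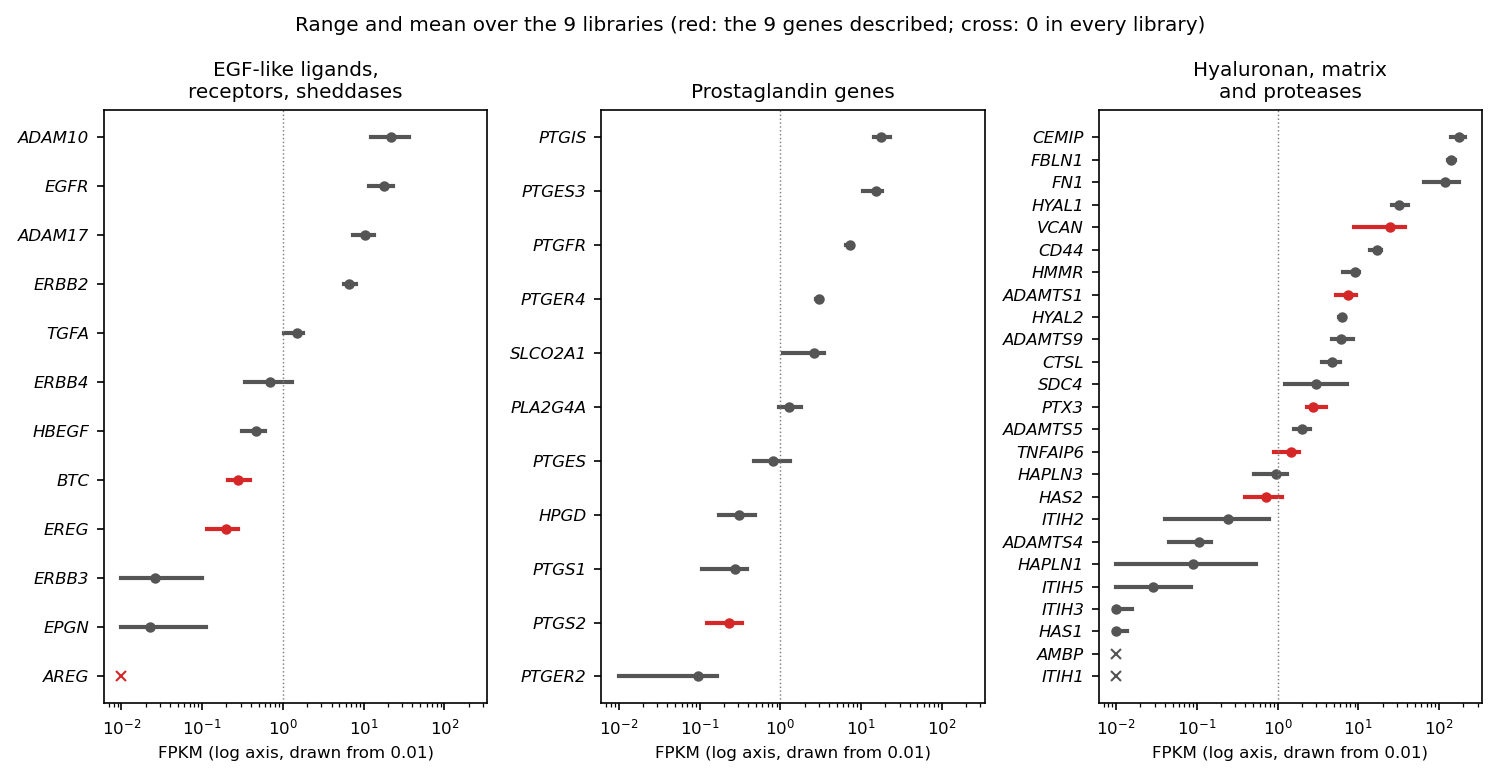
Range (line) and mean (point) of FPKM over the 9 libraries on a log axis drawn from 0.01, for the 9 genes described (red) and the other genes of the EGF, prostaglandin and hyaluronan lists (grey), with a cross for genes listed at 0. EREG and BTC sit below EGFR, PTGS2 sits below PTGIS and PTGFR, and VCAN is the highest of the 9 genes described.

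PTGS2 (12:65834369-65841232), the inducible cyclooxygenase, was at 0.278, 0.241 and 0.125 FPKM in the CON libraries, 0.269, 0.209 and 0.337 in the LOW libraries and 0.215, 0.234 and 0.207 in the HIGH libraries. CON replicate 3 was the lowest and LOW replicate 3 the highest, and the HIGH libraries lay within the range of CON. The log2 fold change was 0.34 (SE 0.31, limma p 0.305) in LOW versus CON and 0.08 (SE 0.31, limma p 0.792) in HIGH versus CON. The shorter of 2 annotated transcripts carried the signal, and the longer was above 0 in LOW replicate 3 alone, at 0.00738 FPKM.

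Other prostaglandin genes spanned a wide range. PTGIS, which makes prostacyclin, was at 14.6 to 23.1 FPKM, PTGES3, a prostaglandin E synthase, at 10.6 to 18.5 and PTGES, the inducible prostaglandin E synthase, at 0.469 to 1.33. The prostaglandin F receptor PTGFR was at 6.48 to 7.74 and the E2 receptor PTGER4 at 2.77 to 3.31, while PTGER2, the E2 receptor known from cumulus expansion, did not exceed 0.165. Of 16 genes listed, 10 had an entry and were tested, and limma called 0 in each comparison. PTGIS had an unadjusted p under 0.05 in HIGH versus CON. Its levels were 18.9, 20.1 and 23.1 in the CON libraries, 15.6, 17.2 and 16.1 in the LOW libraries and 14.6, 17.1 and 15.2 in the HIGH libraries, which put all HIGH libraries below CON (-0.35, SE 0.14, p 0.0298, BH adjusted p 0.651 with limma). The LOW libraries too were below CON before scaling, and overlapped with CON after it (-0.24, SE 0.14, limma p 0.123).

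HAS2 (9:30945030-30961014), the hyaluronan synthase of the expanding cumulus, was the one of HAS2, TNFAIP6, PTX3, VCAN and ADAMTS1 whose HIGH libraries stood apart. It was at 0.762, 0.729 and 1.13 FPKM in the CON libraries, 0.727, 0.919 and 0.810 in the LOW libraries and 0.523, 0.396 and 0.424 in the HIGH libraries. All HIGH libraries were below the 6 others, and CON and LOW overlapped. The means were 0.873 ± 0.222 (SD, n = 3) in CON, 0.819 ± 0.0965 in LOW and 0.448 ± 0.0669 in HIGH. The levels in the libraries correspond to a nominal 20.8 to 65.0 fragments per kilobase.

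In HIGH versus CON the log2 fold change of HAS2 was -0.77 (SE 0.26, 95% CI -1.37 to -0.18, limma p 0.0158, BH adjusted p 0.651). In HIGH versus LOW it was -0.80 (SE 0.26, 95% CI -1.39 to -0.21, limma p 0.0132, BH adjusted p 0.5997). Neither passed the adjustment over all genes. LOW and CON differed by 0.03 (SE 0.26, 95% CI -0.56 to 0.62, limma p 0.918). DESeq2 on the estimated counts gave -1.0001 with an adjusted p of 0.0402 for HIGH versus CON and -0.98 with an adjusted p of 0.0334 for HIGH versus LOW, while edgeR on the same counts gave -1.01 with 0.804 and -0.998 with 0.698. Those counts scale with the genomic span and are not numbers of reads.

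Across 21 other settings, the unadjusted p of HAS2 stayed under 0.05 in 20 for HIGH versus CON and in 21 for HIGH versus LOW, with the sign kept in all. The exception was the fit without HIGH replicate 2 (p 0.0560 with limma). The settings reuse the same libraries and are not independent. The stricter filter, 1 FPKM or more in 3 libraries, left HAS2 out. With the trend of each library with gene span removed, the differences were -0.73 (limma p 0.0161) and -0.78 (limma p 0.0118). That removal subtracts only the average deviation of genes of similar span. Nothing is drawn from it about a deviation of HAS2 beyond that average. At nearly the same deviation of long genes, -0.07, -0.07 and -0.10 (log2), HAS2 was at 0.729 FPKM in CON replicate 2, 0.810 in LOW replicate 3 and 0.424 in HIGH replicate 3. With a single library per group, nothing is read from these values. Over the 9 libraries HAS2 had a Pearson's r of -0.66 with this deviation, whose part in the HAS2 values was not tested. The summed level of 3 epithelial markers (KRT8, CDH1 and EPCAM, 3 of 6 with an entry) was 14.7 to 21.1 FPKM over CON libraries, 13.8 to 16.4 over LOW libraries and 8.26 to 12.1 over HIGH libraries. The summed granulosa markers were 223 to 249, 190 to 204 and 174 to 199, a sum carried mostly by CYP11A1, and over the 8 markers the median difference (log2) was -0.13 in HIGH versus CON and -0.07 in HIGH versus LOW. GATA4, of the same list, reached 4.90 to 9.79 FPKM in HIGH, above LOW (3.97 to 4.50) but overlapping CON (3.73 to 7.88). FST, also listed there, overlapped between all groups (HIGH 8.48 to 10.3, LOW 7.38 to 8.56, CON 7.70 to 10.8). The part of these cells in the HAS2 values was not tested.

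TNFAIP6 (2:156952865-156971348), which transfers heavy chains of inter-alpha-trypsin inhibitor to hyaluronan, was at 1.38, 1.37 and 1.65 FPKM in the CON libraries, 1.44, 1.58 and 1.63 in the LOW libraries and 0.904, 1.51 and 1.86 in the HIGH libraries. HIGH held both the lowest and the highest library. No comparison moved beyond this spread, with log2 fold changes of 0.18 (SE 0.27, limma p 0.524) in LOW versus CON and -0.04 (SE 0.27, limma p 0.871) in HIGH versus CON. Over the 9 libraries TNFAIP6 had a Pearson's r of 0.89 with the share of FPKM in small RNA genes, given as a description, and HIGH replicate 1 was lowest in both.

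PTX3 (1:228182779-228253249), the long pentraxin, was at 4.004, 2.48 and 2.31 FPKM in the CON libraries, 3.01, 2.33 and 2.39 in the LOW libraries and 3.43, 2.29 and 2.52 in the HIGH libraries. Replicate 1 was the highest of each group and all groups overlapped. The 95% CI was -0.55 to 0.46 in LOW versus CON, -0.53 to 0.48 in HIGH versus CON and -0.49 to 0.52 in HIGH versus LOW. The annotated transcript carried most of the signal, and an assembled one reached 0.271 FPKM in LOW replicate 1. The gene lies within the span of VEPH1 (1:228151991-228530810), whose level was 1.02 to 1.54 times that of PTX3. The use of strand in the counting is not given in the sources used here, and overlap of the exons was not examined. Whether reads of the pair were told apart is therefore not known.

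VCAN (5:80650991-80757022) was at 37.8, 22.8 and 8.78 FPKM in the CON libraries, 26.5, 20.2 and 21.4 in the LOW libraries and 32.4, 30.2 and 21.3 in the HIGH libraries. CON held both the highest and the lowest library, and its coefficient of variation was 62.7% beside 14.8% in LOW and 21.0% in HIGH. VCAN was higher in HIGH than in CON by 0.53 on the log2 scale, within the error (SE 0.40, 95% CI -0.37 to 1.43, limma p 0.217, BH adjusted p 0.651). This value turned on CON, being -0.011 without CON replicate 3 and 0.95 (p 0.0207, limma) without CON replicate 1. LOW versus CON was 0.30 (SE 0.40, limma p 0.466), and -0.23 without CON replicate 3.

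ADAMTS1 (1:127748642-127756508) was at 9.45, 7.23 and 5.35 FPKM in the CON libraries, 7.07, 7.43 and 6.23 in the LOW libraries and 9.36, 8.49 and 6.45 in the HIGH libraries. The libraries ranked within CON and within HIGH as they did for VCAN, and all groups overlapped. The means were 7.34 ± 2.05 (SD, n = 3), 6.91 ± 0.616 and 8.10 ± 1.49, and HIGH versus CON was 0.20 (SE 0.19, 95% CI -0.21 to 0.62, limma p 0.299). This value too turned on single libraries of CON and HIGH. It was 0.035 without CON replicate 3, 0.35 without CON replicate 1, 0.32 without HIGH replicate 3 and 0.094 without HIGH replicate 1, and 0.012 with the small RNA share as a covariate.

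The 4 genes with a median FPKM of 1 or more were compared pairwise over the 9 libraries on log2 values, 6 pairs in all. ADAMTS1 and VCAN, the protease and its substrate, had a Pearson's r of 0.88 (permutation p 0.00159, BH adjusted over the 6 pairs 0.00954) and a Spearman's rho of 0.77 (permutation p 0.0213, adjusted 0.0640). Without CON replicate 3 and HIGH replicate 1, the 2 libraries farthest from the median of ADAMTS1, r was 0.71. Taken on deviations from the group means r was 0.86, and with the span trend removed it was 0.91. That removal subtracts only the average deviation of genes of similar span. A library deviation shared by ADAMTS1 and VCAN, whose spans differ, could remain after it. TNFAIP6 and ADAMTS1 had an r of -0.75 (permutation p 0.0220, adjusted 0.0660) and a rho of -0.82 (permutation p 0.0105, adjusted 0.0629). Of the 6 pairs, 1 passed an adjusted p of 0.05 by Pearson's r, and 5 did without HIGH replicate 2. The share of all gene pairs that would pass was not computed. The r of ADAMTS1 and VCAN is not particular to them. Of 9230 candidate genes, 1065 had an r over 0.9 with VCAN and 601 with ADAMTS1.

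Both genes also followed the deviation of long genes in each library, with an r of 0.96 for VCAN, which spans over 100 kb, and 0.93 for ADAMTS1, which spans under 10 kb. The r was 0.62 for PTX3, -0.71 for TNFAIP6 and -0.66 for HAS2, all over 9 libraries and given as a description. The genes most like VCAN among 9230 candidates were ANKRD12 and FBXO30 (r 0.998 each), and 1065 candidates had an r over 0.9 with it. For ADAMTS1 they were UBAP2 (r 0.982) and SYN1 (r 0.978), with 601 over 0.9. For TNFAIP6 they were GMPS (r 0.981) and APPL2 (r 0.972), with 67 over 0.9, and for PTX3 they were an entry named RF00026 (r 0.926) and EIF4A1 (r 0.907), with 4 over 0.9.

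**Figure D4:**
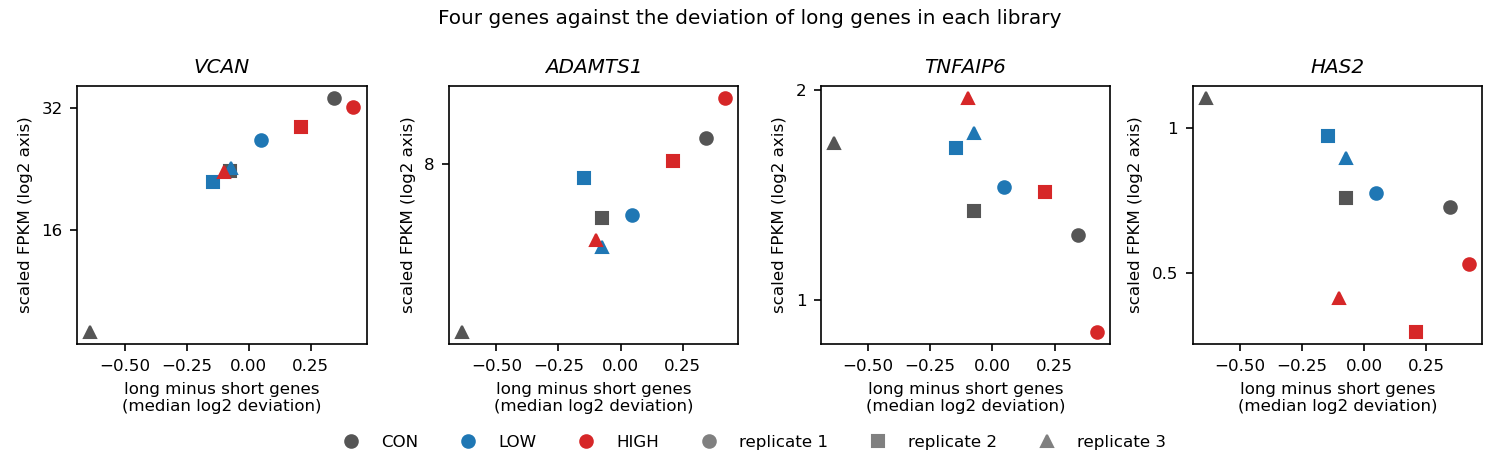
Scaled FPKM (vertical axes, log2) of VCAN, ADAMTS1, TNFAIP6 and HAS2 against the median log2 deviation of genes of 100 kb or more minus that of genes under 10 kb (horizontal axes), 1 point per library, with colour for the group and symbol for the replicate. VCAN and ADAMTS1 rise along the axis from CON replicate 3 to HIGH replicate 1, and the 3 HIGH libraries of HAS2 lie below the others at -0.10, 0.21 and 0.42.

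The wider hyaluronan list held 22 genes, of which 20 had an entry, 14 were tested and limma called 0 in each comparison. The other synthase with an entry, HAS1, did not exceed 0.0138 FPKM, below HAS2 in all 9 libraries, while HAS3 was not analysed here. Several genes that bind or degrade hyaluronan were above HAS2, with the receptor CD44 at 14.1 to 19.2 FPKM, the hyaluronidase HYAL1 at 25.8 to 40.7 and CEMIP, which takes part in hyaluronan breakdown, at 141 to 207. ITIH1 and AMBP, genes of some of the liver-made parts of inter-alpha-trypsin inhibitor, were listed at 0.

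CEMIP was at 197, 176 and 174 FPKM in the CON libraries, 152, 159 and 141 in the LOW libraries and 198, 207 and 179 in the HIGH libraries. LOW lay below both other groups, with HIGH versus LOW at 0.31 (SE 0.11, limma p 0.0218, BH adjusted p 0.621). CTSL, the protease cathepsin L, was at 4.59, 4.97 and 4.72 in the CON libraries, 5.83, 5.97 and 5.09 in the LOW libraries and 3.53, 4.08 and 4.32 in the HIGH libraries. LOW was the highest group in every library, at 0.34 against CON (SE 0.15, limma p 0.0468, BH adjusted p 0.99993) and with HIGH versus LOW at -0.55 (SE 0.15, limma p 0.00423, BH adjusted p 0.5997). ITIH2, another heavy chain gene, was at 0.255, 0.0754 and 0.0402 FPKM in the CON libraries, 0.138, 0.0717 and 0.151 in the LOW libraries and 0.790, 0.186 and 0.485 in the HIGH libraries. HIGH lay above LOW but overlapped CON, since HIGH replicate 2 was below CON replicate 1, with HIGH versus CON at 1.40 (SE 0.50, limma p 0.0203, BH adjusted p 0.651). FBLN1, a matrix protein that binds versican, was at 128 to 159 FPKM and differed by -0.09 (SE 0.11, limma p 0.427) in HIGH versus CON.

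Of 34 genes of ovulatory signalling, transcription and proteolysis, 29 had an entry, 28 were tested and limma called 0 in each comparison. The highest were TIMP1, an inhibitor of matrix metalloproteinases, at 3247 to 6098 FPKM, and MMP2, a gelatinase, at 804 to 1204. STAR, which brings cholesterol to steroid synthesis, was at 6.88, 6.86 and 7.63 FPKM in the CON libraries, 6.01, 6.74 and 5.84 in the LOW libraries and 4.65, 5.91 and 3.65 in the HIGH libraries. The HIGH libraries lay below CON (-0.56, SE 0.17, limma p 0.00837, BH adjusted p 0.651), and also below LOW after scaling (-0.46, SE 0.17, limma p 0.0214, BH adjusted p 0.621). The LOW libraries of STAR were below CON before scaling, and overlapped with CON after it (-0.10, SE 0.17, limma p 0.583). ATF3, a stress-responsive transcription factor, was at 0.725 to 1.01 over CON libraries, 0.647 to 0.898 over LOW libraries and 0.411 to 0.592 over HIGH libraries, with HIGH versus CON at -0.68 (SE 0.26, limma p 0.0298, BH adjusted p 0.651).

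PRKACA, a catalytic subunit of the cAMP-dependent kinase that relays the gonadotropin signal, was at 8.56, 5.50 and 3.57 FPKM in the CON libraries, 4.86, 5.40 and 4.56 in the LOW libraries and 11.7, 9.46 and 5.82 in the HIGH libraries. HIGH lay above LOW and overlapped CON (0.74, SE 0.29, limma p 0.0310, BH adjusted p 0.626 against LOW). FOSL2, a subunit of the AP-1 transcription factor, differed by 0.35 in HIGH versus LOW (SE 0.14, limma p 0.0327, BH adjusted p 0.626). Over the 4 lists of other genes, 59 were tested, and those with an unadjusted p under 0.05 were 1 in LOW versus CON, 5 in HIGH versus CON and 6 in HIGH versus LOW, beside 1.83%, 6.77% and 7.67% of all genes. Groups without overlap numbered 5, 7 and 18 of these 59, beside 6.07%, 9.4% and 18.9% of all genes, and nothing is read from these counts.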

How the data were processed

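RNA from ovine GCs was measured in 3 CON, 3 LOW and 3 HIGH libraries, grouped by the labels. The authors aligned clean reads with Hisat2, assembled transcripts with Stringtie and deposited FPKM per gene and per transcript. HTSeq 0.6.0 is named for counting and STAR 2.5.1b, without a role, in the submitters' processing notes. The genome build is not given in the sources used here. The authors also deposited estimated counts as whole numbers. These estimated counts lay within 3% of FPKM times genomic span times 1 factor per library for 100% of the 16167 to 20931 transcripts examined in a library, so they were treated as rescaled FPKM. A fitted edgeR or DESeq2 value on them rests on rescaled values, with introns counted in the span.

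The genes and lists were chosen with earlier results of these data known. Scaling set the median of 11689 genes, all at 1 FPKM or above throughout, equal between libraries. limma 3.58.1 (R 4.3.3) with a spread trended on mean level was fitted to log2(FPKM + 0.1), with all 9 libraries and 3 groups in 1 model, over the 24365 genes that reached 0.1 FPKM in 3 libraries and spanned 300 bases or more. On simulated data for HIGH versus CON over 24438 genes, it called 200 of 200 changed genes and 9 others, and 0 with nothing changed. The changed genes there had a mean of 1 FPKM or more and changed by more than the fold threshold. No deviation of libraries with gene span was simulated. The result therefore does not cover genes under 1 FPKM or smaller changes. Alternatives were edgeR 4.0.16, DESeq2 1.42.0, other filters, pseudocounts of 1 and 0.01, other scaling, 2 groups only, a replicate block, the small RNA share as a covariate, each library left out, and, chosen after seeing the data, removal of the span trend by lowess (fraction 0.3). Small RNA genes were those with Rfam or microRNA names. Correlations used 100000 permutations, 2-sided.

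Named other genes were those of each list with the 2 highest mean FPKM and the 3 with the smallest limma p among those under 0.05 in each comparison, with levels of further members of the lists chosen after their values were seen. Likeness was Pearson's r on scaled log2 values. Figures used matplotlib 3.10.9, and other steps Python 3.11.15, numpy 2.4.6, pandas 2.3.3, scipy 1.17.1 and statsmodels 0.14.6. No sequences were used here.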

Additional observations from a re-analysis of the deposited data

How the results depend on the processing

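With DESeq2 on the estimated counts, 165 genes were called in LOW versus CON, 177 in HIGH versus CON and 339 in HIGH versus LOW, 1 of the genes described among them (HAS2 in HIGH versus CON, log2 fold change -1.0001), beside 2 of all genes with limma in each comparison. The numbers of all genes called were 1 in LOW versus CON and 1 in HIGH versus LOW with the stricter filter, 4 and 4 with the small RNA share as a covariate (LOW versus CON, HIGH versus CON), 1 and 6 with only the 2 groups compared (HIGH versus CON, HIGH versus LOW), and 4 with a pseudocount of 0.01 in HIGH versus LOW. With each library left out they were 1 to 5, 2 to 8 and 1 to 5. The extremes were 1 without LOW replicate 1 or LOW replicate 3 and 5 without CON replicate 3 in LOW versus CON, 8 without CON replicate 3 in HIGH versus CON, and 1 without LOW replicate 1 or HIGH replicate 3 and 5 without CON replicate 1 in HIGH versus LOW. The number of correlated pairs was 1 to 5. The cause was not tested.

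The labels do not say that a replicate number marks a shared batch, and not every same-numbered pair had a residual correlation over 0.1, so the libraries were treated as unpaired. The data hint at a shared component in part, with correlations of 0.177 to 0.417 for replicate 1, 0.088 to 0.424 for replicate 3 and -0.027 to 0.010 for replicate 2, a mean of -0.081 for different numbers, and 6 of 9 libraries that correlated best with their own number. With the replicate block, 4, 4 and 2 genes were called in LOW versus CON, HIGH versus CON and HIGH versus LOW, with 633, 3669 and 3907 at an unadjusted p under 0.05 beside 446, 1649 and 1868 without it, and none of the 8 genes described was called.

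Of 300 fold changes of the 8 genes under alternatives that kept every library, 1 became called and 14 changed sign. With the small RNA share as a covariate, TNFAIP6 was -0.03, 0.28 and 0.30 in LOW versus CON, HIGH versus CON and HIGH versus LOW, PTX3 was 0.072 in LOW versus CON and -0.28 in HIGH versus LOW, and in HIGH versus LOW ADAMTS1 was -0.16 and VCAN -0.34. In LOW versus CON, HAS2 was -0.0089 with edgeR, -0.020 with DESeq2 and -0.065 without scaling, and ADAMTS1 was -0.053 without scaling. In HIGH versus LOW, PTX3 was -0.018 with edgeR, -0.028 with TMM factors and -0.026 with the span trend removed.

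With each library left out, 20 of 216 fold changes changed sign and 0 were called. In LOW versus CON the ranges were -0.094 to 0.25 for HAS2, -0.15 to 0.14 for PTX3, -0.11 to 0.20 for ADAMTS1 and -0.23 to 0.72 for VCAN. In HIGH versus CON they were -0.14 to 0.11 for BTC, -0.11 to 0.19 for PTGS2, -0.29 to 0.23 for TNFAIP6, -0.19 to 0.16 for PTX3 and -0.011 to 0.95 for VCAN, and in HIGH versus LOW -0.47 to 0.051 for TNFAIP6 and -0.15 to 0.17 for PTX3. For genes under 1 FPKM, few fragments per kilobase limit what these libraries can show.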
